A study of Mus musculus with 4 samples.

Results

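10 transcription factors of male meiosis and sperm formation, Mybl1, Tcfl5, Rfx2, Rfx4, Sox30, Crem, Tbpl1, Taf7l, Ovol1 and Pou5f2, were followed through the germ cells of mouse testicular organoids (TOs) and mouse testes. They were chosen by gene symbol, all 10 were found among the 32285 genes counted, and their UMIs (unique molecular identifiers, each standing for 1 captured RNA molecule) were summed per library and germ cell state. The scRNA-seq data held 2 TO libraries and 2 testis libraries of unsorted cells, made with the droplet method of 10x Genomics. TOs were built from dissociated cells of neonatal ICR mouse testes, which reassembled in microwells, were embedded in basement membrane extract and were then cultured at an air-liquid interface in serum replacement medium with FSH, testosterone and antioxidants. Both tissues are given as 28 days old in the series description, and the paper too gives day 28 for the sequenced TOs. The dissociation protocol in the labels names TOs of day 21. For TOs these are days in culture of cells from neonatal pups, so the same day is not the same age as in testes. The organoids came from 2 independent batches, and which library held which batch is not given, nor whether the testis libraries came from separate animals. Differences between TOs and testes therefore include those of culture, of the starting cells and of age, which cannot be told apart, and every p below measures the spread between these 4 libraries. Where 1 library is left out, its group keeps a single library, the other group alone supplies the spread, and the lone library is assumed to vary like it, so such values show only how far a call rests on that library.

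The 10 factors act at successive points of the germ line. MYBL1 (A-MYB) is the activator that male germ cells need to pass through pachytene, where it drives piRNA precursors and many meiotic genes, and TCFL5 is a basic helix-loop-helix factor of the same window. RFX2, RFX4 and SOX30 belong to the families that turn on genes of the flagellum and of haploid cells. CREM, TBPL1 (TRF2, a relative of the TATA-binding protein) and TAF7L (the germ cell relative of TAF7) build the transcription machinery of late spermatocytes and round spermatids, OVOL1 is a zinc-finger repressor that lets spermatocytes leave early prophase, and POU5F2 is a testis POU domain factor.

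RefSeq promoter sequences (250 bases before to 50 after a start site, GRCm38.p6) matched 7 of the 10 genes. Mybl1, Crem and Ovol1 had no entry. 3 of the 4 members that were lower in TO leptotene and zygotene cells (Rfx2, Tbpl1 and Tcfl5) and the member that was higher in TO germ cells as a whole (Taf7l) are shown on their own strand, with matches to 6 short motifs in capitals, so that the letters around the starts of the members that differed can be compared. Each window spans a RefSeq start site, and that of Tbpl1 lies inside the gene as GENCODE vM21 draws it (chr10:22703879-22731938). The motifs, searched on both strands, were AACNGNC for MYB factors, GTTGCC for RFX factors, TGACG for CREM and its relatives (part of the cAMP response element), CACGTG (an E-box, for basic helix-loop-helix factors), ACAAT for SOX factors and CCGTTA for OVO factors.
Rfx2, chr17:56830959-56831258, minus strand: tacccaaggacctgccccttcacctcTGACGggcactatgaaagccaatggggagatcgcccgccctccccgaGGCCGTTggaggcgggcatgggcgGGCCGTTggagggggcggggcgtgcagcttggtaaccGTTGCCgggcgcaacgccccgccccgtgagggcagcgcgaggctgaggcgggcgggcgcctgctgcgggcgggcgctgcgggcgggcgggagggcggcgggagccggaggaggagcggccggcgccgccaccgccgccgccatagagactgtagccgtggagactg
Tbpl1, chr10:22731398-22731697, minus strand: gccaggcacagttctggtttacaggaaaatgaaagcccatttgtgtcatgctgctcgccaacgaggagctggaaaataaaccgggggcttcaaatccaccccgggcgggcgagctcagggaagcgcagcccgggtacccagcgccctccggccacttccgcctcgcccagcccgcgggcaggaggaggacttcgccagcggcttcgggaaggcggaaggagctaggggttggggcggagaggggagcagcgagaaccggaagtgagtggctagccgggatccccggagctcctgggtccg
Tcfl5, chr2:180642642-180642941, minus strand: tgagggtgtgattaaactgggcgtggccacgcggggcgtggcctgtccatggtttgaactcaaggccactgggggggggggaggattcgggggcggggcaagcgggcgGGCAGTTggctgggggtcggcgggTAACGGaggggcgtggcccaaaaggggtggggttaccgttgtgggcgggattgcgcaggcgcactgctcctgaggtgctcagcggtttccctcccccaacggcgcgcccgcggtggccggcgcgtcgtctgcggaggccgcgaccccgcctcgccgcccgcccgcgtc
Taf7l, chrX:134476441-134476740, minus strand: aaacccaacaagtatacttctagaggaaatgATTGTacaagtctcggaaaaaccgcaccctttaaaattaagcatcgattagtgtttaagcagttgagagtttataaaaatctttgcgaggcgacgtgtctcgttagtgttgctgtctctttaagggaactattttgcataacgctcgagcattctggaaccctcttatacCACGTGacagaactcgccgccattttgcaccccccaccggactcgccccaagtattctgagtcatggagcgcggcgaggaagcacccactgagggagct

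The Rfx2 window held the CREM motif at -224 from the start site, the MYB motif at -177 and -153 and the RFX motif at -116. The Tcfl5 window held the MYB motif at -142 and the OVO motif at -118, the Taf7l window the SOX motif at -219 and the E-box at -49, and the Tbpl1 window none of the 6. Of all 32851 mouse promoters of this length, 32.8% held the MYB motif, 12.5% the RFX motif, 20.8% the CREM motif, 7.15% the E-box, 31.0% the SOX motif and 2.76% the OVO motif. GC content was 75.7% for Rfx2, 73.0% for Tcfl5, 66.0% for Tbpl1 and 47.0% for Taf7l. In GENCODE vM21, Pou5f2 lies inside Fam172a on the same strand, so reads of the pair could be shared. Fam172a itself had 1105 and 1069 UMIs in TO germ cells and 1031 and 3774 in testis germ cells. Tcfl5, Crem and Tbpl1 each overlap the end of a gene on the opposite strand, and the activator and repressor forms of Crem cannot be told apart in counts per gene.

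The libraries held 11826 to 14643 barcodes and 74988295 to 119966959 UMIs, and pairs of libraries shared 30 to 55 barcodes. After removal of doublets and of cells outside 1000 to 5000 genes, 20000 UMIs or 10% mitochondrial UMIs, 8713 to 9867 cells per library remained, and germ cells made up 934 and 696 of them in the TO libraries and 7078 and 7794 in the testis libraries. Each germ cell was matched to the testis state with the most similar expression, leaving the 10 factors out of the comparison. The share of germ cells in the leptotene and zygotene state was 37.6% ± 16.1 in TOs and 4.28% ± 0.0322 in testes, and that in the undifferentiated spermatogonia state was 32.6% ± 11.1 and 1.78% ± 1.28 (mean ± SD, n = 2 libraries each). The diplotene state, which includes dividing spermatocytes, held 3.15% ± 0.825 and 24.3% ± 1.09, round spermatids 1.16% ± 0.588 and 31.5% ± 16.2, and elongating spermatids 0% (0 cells) and 27.3% ± 19.1. Named from clusters, diplotene held only 1.49% ± 0.133 and 3.35% ± 0.352. Testes had 255 and 242 cells in the cluster of that name and 1667 and 1956 matched cells, so most matched cells lay in other clusters. The testis libraries stood apart from each other in spermatids, with 3038 and 1562 round and 975 and 3182 elongating cells. None of these ranges overlapped between TOs and testes, and the exact permutation test over libraries gave p = 0.33, the smallest it can give for 2 against 2. All 6 pachytene and all 10 leptotene and zygotene markers were detected in the matching TO cells, though the same markers had named these states.

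**Figure D1:**
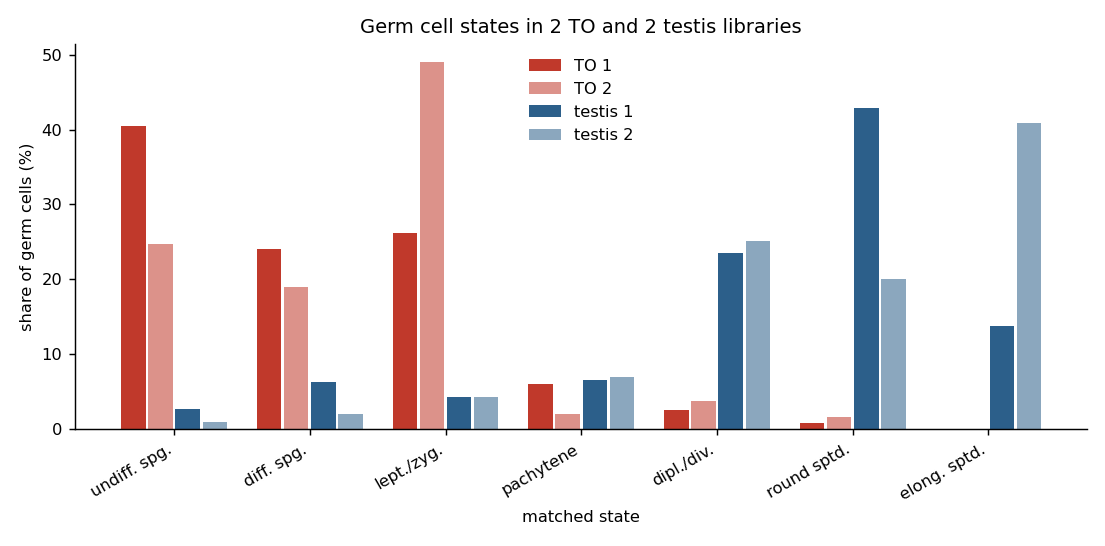
Share of germ cells (%, y axis) matched to each of 7 states (x axis) in each of the 2 TO and 2 testis libraries, 1 bar per library. TO germ cells sat mostly in the 3 earliest states, and elongating spermatids made up 0% in TOs and 27.3% ± 19.1 (SD, n = 2) in testes.

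In droplet data, RNA set free by broken cells gives UMIs to cells that do not make it. Transcripts of protamine 1 (Prm1), made in elongating spermatids, reached 689 to 3895 CPM (UMIs per 1000000 UMIs of the same cells) in the Sertoli, Leydig and macrophage cells of testes and 0 to 0.447 CPM in those of TOs. Members of the panel that late testis germ cells use appeared in the same somatic cells. Tbpl1 stood at 257 and 442 CPM in testis Sertoli cells and at 23.7 to 47.4 CPM in the 3 TO somatic types, Tcfl5 at 104 and 126 CPM against 2.78 to 13.6 CPM, and Crem at 121 and 87.4 CPM against 13.0 to 29.4 CPM. Pou5f2 stood at 6.47 to 23.8 CPM in the testis types and 4.11 to 5.55 CPM in the TO types, and Rfx4 at 2.94 to 16.7 CPM and 0 to 0.284 CPM. For all 5 the testis somatic level lay above that of TOs, as it did for Rfx2 and Ovol1. The ranges of Sox30 (9.41 to 45.9 CPM in the testis types, 0 to 15.7 CPM in the TO types), Mybl1 and Taf7l overlapped. Pairs of values below give replicate 1 before replicate 2, and TOs before testes.

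In the sum over all germ cells, 8 of the 10 factors were lower in TOs and Taf7l was higher, while Mybl1 passed in neither direction. A gene was called when edgeR's quasi-likelihood test gave it an adjusted p below 0.01 and a log2 fold change beyond 1 in either direction, and 32.1% of all genes tested were called lower and 18.6% higher by the same rule. The median log2 fold change was -2.82 over the 10 members and -0.34 over all genes. DESeq2 called the same 9 members. Fitted differences follow TMM scaling, which sets the bulk of genes equal between libraries, and so are not the plain ratio of the CPM given beside them. Without upper limits on genes and UMIs per cell, 5 members remained called (Rfx2, Rfx4, Sox30 and Crem lower, Taf7l higher), while Tbpl1 (-2.05, edgeR adjusted p = 0.0142), Tcfl5 (-1.24, 0.0262), Ovol1 (-1.30, 0.0203) and Pou5f2 (-1.24, 0.0918) were not. With the lowest somatic level of each gene subtracted per cell, edgeR called 0 genes over all germ cells, and 6 members in the lower direction and Taf7l in the higher had an unadjusted p below 0.05. The subtraction also takes away RNA that somatic cells make themselves. It left no gene of any kind called here or in the early states below. A call lost under it therefore cannot tell free RNA from a test that lost its power. Because TO germ cells contained few late states, this sum mixes levels within cells with the shares of cells, and fewer cells of a state and less RNA per cell cannot be told apart in it.

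Rfx4 stood at 10.0 and 3.79 CPM in TO germ cells and at 74.6 and 53.4 CPM in testis germ cells (log2 fold change -4.04, SE 0.42, edgeR adjusted p = 0.000475). Crem stood at 45.9 and 68.7 CPM and at 429.5 and 247 CPM (-3.32, SE 0.42, edgeR adjusted p = 0.000922). Rfx2, Tbpl1, Sox30, Pou5f2, Tcfl5 and Ovol1 had fitted differences from -3.25 to -1.89. For none of these 8 did a TO library reach the level of a testis library. Taf7l went the other way, with 376 and 599 CPM in TOs and 73.0 and 43.2 CPM in testes (2.31, SE 0.42, edgeR adjusted p = 0.00329). Mybl1 stood at 33.3 and 64.1 CPM in TOs and 19.96 and 29.9 CPM in testes, without overlap but short of the threshold (0.13, SE 0.48, edgeR adjusted p = 0.812). Rfx2, Rfx4, Sox30, Crem and Tbpl1 stayed called without any 1 library. Tcfl5 and Pou5f2 were not called without TO replicate 1 (edgeR adjusted p = 0.0197 and 0.0226) or TO replicate 2 (0.0160 and 0.0145), Ovol1 was not called without either of them or testis replicate 1 (0.0463, 0.0273 and 0.0129), and Taf7l was not called without TO replicate 2 (0.0140).

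In undifferentiated spermatogonia (378 and 172 cells in TOs, 190 and 68 in testes), 3 of 8 members tested were lower in TOs, where 9.86% of all genes were called lower. Tbpl1 stood at 139 and 138 CPM in TOs and at 258 and 310.0 CPM in testes (log2 fold change -1.10, SE 0.19, edgeR adjusted p = 0.000388), and Crem at 26.7 and 36.1 CPM and 87.2 and 80.9 CPM (-1.53, SE 0.25, edgeR adjusted p = 0.000195). Neither overlapped between the groups, and both stayed called without any 1 library. In testis Sertoli cells Tbpl1 (257 and 442 CPM) and Crem (121 and 87.4 CPM) stood about as high or higher. With the somatic level subtracted edgeR called 0 genes, the differences became -0.10 and -0.59, and none of the 5 members tested had an unadjusted p below 0.05. Rfx4 was called on few counts, 2 and 3 UMIs in TOs and 13 and 6 in testes. The ratio of its pooled levels was 0.0937 (95% counting interval 0.0274 to 0.260), and it was not called without TO replicate 1, TO replicate 2 or testis replicate 2 (edgeR adjusted p = 0.121, 0.0222 and 0.0202) and was too sparse to be tested without testis replicate 1. Mybl1, Rfx2, Sox30 and Tcfl5 had differences from -1.41 to -0.65 and missed the threshold (edgeR adjusted p = 0.0243 to 0.0944), and Ovol1 and Pou5f2 were too sparse to be tested. Of these, Sox30 was called without testis replicate 2 (-1.62, edgeR adjusted p = 0.00374). Taf7l stood at 266 and 313 CPM in TOs and at 246 and 281 CPM in testes, ranges that overlapped (0.07, 95% interval -0.35 to 0.50).

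In differentiating spermatogonia (224 and 132 cells in TOs, 446 and 154 in testes), 3 of 9 members tested were lower in TOs, where 12.1% of all genes were called lower. Crem stood at 25.7 and 29.2 CPM in TOs and at 109 and 79.9 CPM in testes (-1.86, SE 0.25, edgeR adjusted p = 0.000174), and Tbpl1 at 157 and 147 CPM and 315 and 419.6 CPM (-1.31, SE 0.20, edgeR adjusted p = 0.000375). Pou5f2, with 4 and 3 UMIs in TOs and 27 and 22 in testes, was called (-2.83, SE 0.58, edgeR adjusted p = 0.00331), but not without TO replicate 1 or testis replicate 2 (0.0333 and 0.0196) or by DESeq2 (DESeq2 adjusted p = 0.0113). Testis groups lay above TO groups for these 3 without overlap. Testis Sertoli cells held 121 and 87.4 CPM of Crem and 257 and 442 CPM of Tbpl1. With the somatic level subtracted edgeR called 0 genes, the differences became -0.73 for Crem and -0.35 for Tbpl1, and none of the 7 members tested had an unadjusted p below 0.05. Rfx2 stood at 16.4 and 5.48 CPM in TOs and 37.8 and 35.5 CPM in testes and missed the threshold (-1.70, SE 0.42, edgeR adjusted p = 0.0110). Taf7l again differed little, with 369 and 484 CPM against 308 and 352 CPM (0.33, 95% interval -0.12 to 0.79). Tcfl5 (-0.63), Sox30 (-1.36), Mybl1 (-0.94) and Ovol1 (-0.02) missed it too, with edgeR adjusted p from 0.0212 to 0.990. Rfx2 passed without TO replicate 1, testis replicate 1 or testis replicate 2 (edgeR adjusted p = 0.000323, 0.00624 and 5.94e-05) and Sox30 without testis replicate 2 (0.00638). Rfx4 had 0 and 1 UMIs in TOs and 28 and 6 in testes and was too sparse to be tested, though not without TO replicate 2 or testis replicate 2, where it was called (edgeR adjusted p = 0.00333 and 0.000306), with a ratio of pooled levels of 0.0310 (95% counting interval 0.000764 to 0.185).

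Leptotene and zygotene cells are in the early prophase of meiosis, when chromosomes pair, and TOs had a like number of them as testes, 245 and 341 against 301 and 335 cells. Here 4 of 9 members tested (Tcfl5, Rfx2, Crem and Tbpl1) were lower in TOs and none was higher, where 13.1% of all genes were called lower. The median log2 fold change was -1.29 over the members and -0.01 over all genes, and DESeq2 called the same 4. Mybl1 itself was on in both: 104 and 119.7 CPM in TOs and 92.8 and 156 CPM in testes, with the TO values inside the testis range (-0.17, 95% interval -0.76 to 0.42, edgeR adjusted p = 0.70). Within each library it stood 8.80 to 32.7 times above its level in differentiating spermatogonia.

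Tcfl5, the other factor of entry into pachytene, stood at 91.6 and 89.9 CPM in TOs and at 169 and 269 CPM in testes (-1.29, SE 0.25, edgeR adjusted p = 0.00346). Rfx2 stood at 18.6 and 9.16 CPM and at 48.1 and 61.5 CPM (-2.06, SE 0.38, edgeR adjusted p = 0.00265). Crem stood at 78.5 and 75.9 CPM and at 197 and 161 CPM (-1.23, SE 0.23, edgeR adjusted p = 0.00282). In each, both TO libraries lay below both testis libraries, as they did for Tbpl1, at 111 and 109 CPM against 326 and 474 CPM (-1.87, SE 0.24, edgeR adjusted p = 0.00029). Tbpl1 was the only call left without TO replicate 2 and stayed called without any 1 library. Tcfl5 and Crem were not called without TO replicate 1 (edgeR adjusted p = 0.0256 and 0.0395) or TO replicate 2 (0.0174 and 0.0325), Rfx2 was not called without TO replicate 2 (0.0278), and Tcfl5 fell short of the fold limit without testis replicate 2 (-0.96).

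5 members were not called in this state. Sox30 stood at 35.3 and 28.1 CPM in TOs and at 61.0 and 81.7 CPM in testes, without overlap (-1.20, SE 0.28, edgeR adjusted p = 0.0107). Rfx4 had 5 and 2 UMIs in TOs and 15 and 21 in testes (-2.98, SE 0.71, edgeR adjusted p = 0.0119). Both of these sat just short of the 0.01 limit, and Rfx4 passed without TO replicate 1 (edgeR adjusted p = 0.00511) and Sox30 without testis replicate 1 or 2 (0.00023 and 0.00978). Pou5f2 stood at 5.39 and 4.58 CPM and at 10.3 and 17.3 CPM (-1.51, SE 0.53, edgeR adjusted p = 0.0705). Taf7l, whose level peaked in this state in all 4 libraries, was the exception in sign, at 644 and 842 CPM in TOs and 467 and 423 CPM in testes (0.72, 95% interval 0.15 to 1.29, edgeR adjusted p = 0.0725). Ovol1, with 4 and 4 UMIs in TOs and 6 and 6 in testes, was too sparse to be tested.

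**Figure D2:**
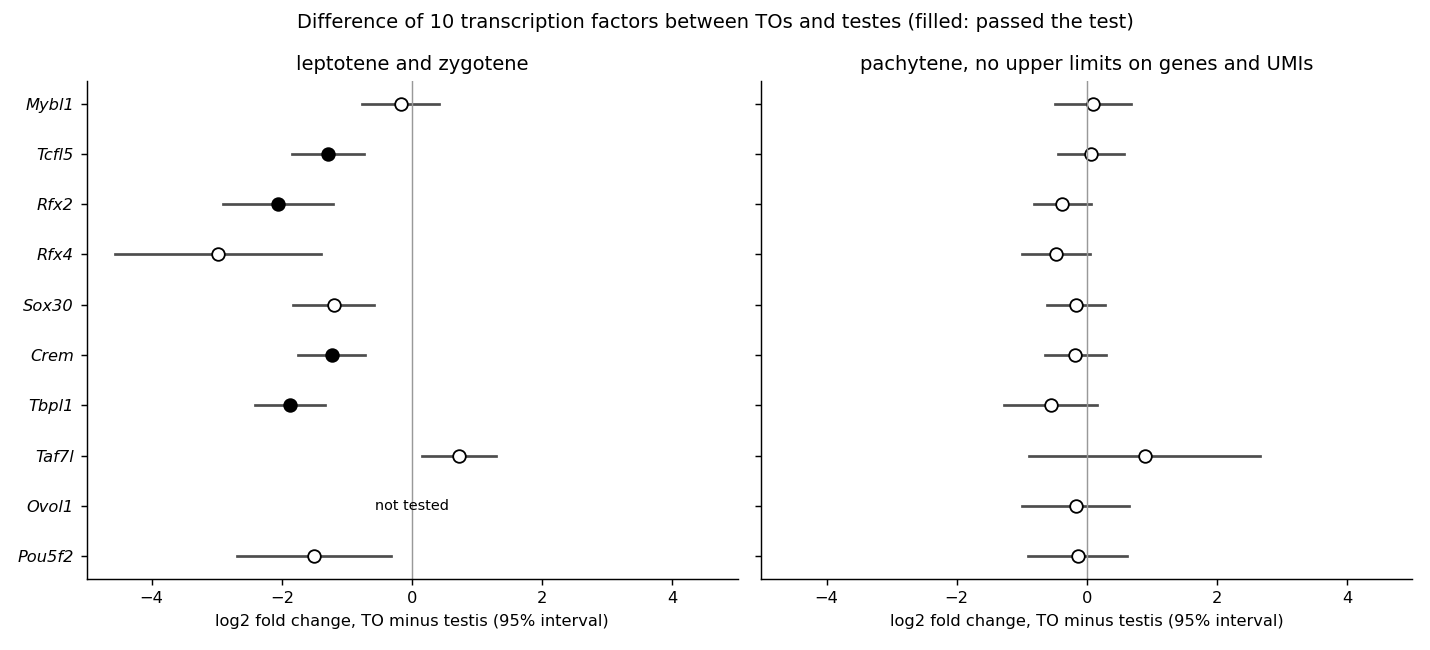
Log2 fold change (TO minus testis, x axis, with 95% intervals) of each of the 10 factors (y axis) in leptotene and zygotene cells and in pachytene cells without upper limits on genes and UMIs, filled where the test passed. 4 members were lower in TO leptotene and zygotene cells, whereas in pachytene cells every interval covered 0.

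The 4 called members were also counted in testis somatic cells, at levels that differed between the types. Tbpl1, at 326 and 474 CPM in testis leptotene and zygotene cells, was at 257 and 442 CPM in Sertoli cells, 154 and 140.0 CPM in Leydig cells and 316 and 335 CPM in macrophages of the same libraries. Tcfl5, at 169 and 269 CPM, was at 104 and 126, 70.4 and 36.5, and 129 and 120.1 CPM in these types. Crem, at 197 and 161 CPM, was at 121 and 87.4, 101 and 50.3, and 127 and 83.3 CPM, and Rfx2 was at 48.1 and 61.5 CPM here and at 11.2 to 28.8 CPM in the 3 testis somatic types. In each testis library the germ cells were above all 3 types for each of the 4 genes, by the least for Tbpl1. After thinning to 1500 UMIs per cell, 42.9% and 46.9% of testis leptotene and zygotene cells and 35.2% and 55.3% of testis Sertoli cells had a Tbpl1 UMI, against 15.9% and 17.0% and 5.72% and 6.26% in TOs. For Tcfl5 the shares were 23.6% and 26.6% and 19.9% and 23.0% in testes, against 13.4% and 12.6% and 2.15% and 0.695% in TOs. Taf7l had no such level outside the germ line: 47.8% and 45.1% of testis cells and 56.9% and 69.8% of TO cells in this state had a UMI, against 1.11% to 2.33% of Sertoli cells. The summed level of 8 elongating spermatid markers in the same state was 487 and 396 CPM in testes and 4.19 and 5.89 CPM in TOs, and that of 6 pachytene markers was 2787 and 2409 CPM and 371 and 294 CPM. When the lowest somatic level of each gene was subtracted per cell in each library, the differences became -0.95 for Tbpl1, -0.67 for Crem, -0.74 for Tcfl5 and -1.54 for Rfx2, and edgeR called no gene at all in this state. Of 7 members then tested, Rfx2 and Crem had an unadjusted p below 0.05 in the lower direction and Taf7l in the higher. How much of each difference came from free RNA was not tested further.

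**Figure D3:**
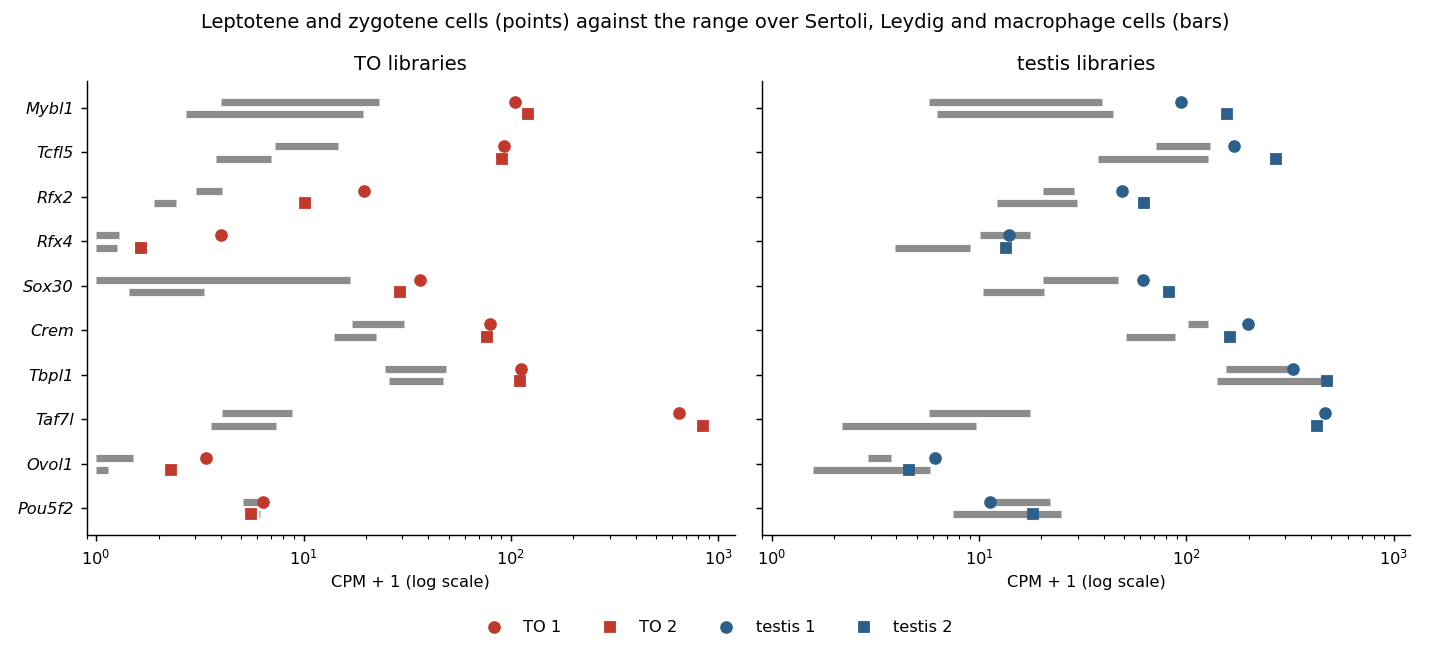
Level of each of the 10 factors (y axis) in leptotene and zygotene cells (points, 1 per library) against the range over Sertoli, Leydig and macrophage cells (bars), as CPM + 1 on a log scale (x axis). In testes Tbpl1 reached 326 and 474 CPM in germ cells and 257 and 442 CPM in Sertoli cells, whereas in TOs it stayed at 23.7 to 47.4 CPM in the 3 somatic types.

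Pachytene, the long stage of recombination, was the state of the highest Tcfl5 and Pou5f2 level in all 4 libraries once the upper limits were lifted (with the limits, both were higher in diplotene in TO replicate 1). Within the upper limits of 5000 genes and 20000 UMIs, only 56 and 14 TO cells matched it, against 461 and 537 testis cells. 0 of 10 members were called by edgeR and 0 by DESeq2, where 0.683% of all genes were called lower and 0.867% higher by edgeR, and Ovol1 alone had an unadjusted p below 0.05 in edgeR and no member in DESeq2. TO replicates disagreed here: Tcfl5 stood at 253 and 722 CPM in TOs and 535 and 586 CPM in testes, Crem at 101 and 322 CPM and 258 and 251 CPM, and Rfx4 at 196 and 12.9 CPM and 73.8 and 72.8 CPM. In each the TO values lay on either side of the testis values. Without TO replicate 2, which had 14 cells, Tcfl5, Crem, Tbpl1 and Pou5f2 were called lower (-1.60, -1.78, -2.44 and -2.65), a comparison of a single TO library of 56 cells in which only the testes supplied the spread. TO replicate 1 had 778 CPM of summed Sertoli markers in this state and TO replicate 2 had 64.4 CPM, against 48.1 and 30.05 CPM in testes, and the part of somatic RNA in the disagreement was not tested. Ovol1 had 0 UMIs in both TO libraries, which allows up to 12.7 CPM over the pooled TO cells (3 counts), near its 13.3 CPM over the pooled testis cells, so a difference was not detectable at this depth.

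The upper limits removed many large cells. Without them clusters and testis states were built anew, so pachytene with and without the limits are not the same cells. Median UMIs per matched cell were 2896 and 43735.5 in TOs and 13762 and 14129 in testes without the limits. With the limits they were 2069.5 and 3949 in TOs and 2256 and 2950 in testes. Without them 88 and 48 TO cells and 467 and 598 testis cells matched pachytene, and 33.0% and 68.8% of the TO cells and 39.2% and 45.8% of the testis cells exceeded a limit. The share of germ cells in pachytene was then 6.38% ± 1.78 in TOs and 6.49% ± 0.881 in testes (SD, n = 2, exact permutation p = 1), and 4.00% ± 2.82 and 6.70% ± 0.266 with the limits. All 6 pachytene markers were detected in every library, with a summed level of 9137 and 8710 CPM in TOs and 10065 and 9677 CPM in testes. The same markers had named the state, so their presence is no separate test of the match.

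In these cells all 10 factors were detected in both TO libraries and none was called in either direction, where 0.987% of all genes were called lower and 0.162% higher. Cells entered this state because their other genes resembled those of testis pachytene cells. A TO cell without that programme would have been matched to another state. The comparison, like those within the limits and in diplotene, therefore covers only TO cells like the testis state and cannot show what other TO cells lacked. No member had an unadjusted p below 0.05 in edgeR (DESeq2 was not run without the limits), and 0 were called when each library was left out in turn. The median difference was -0.17 over the members and -0.05 over all genes. The intervals bound what these libraries could show. Mybl1 stood at 116 and 128 CPM in TOs and at 85.9 and 125 CPM in testes (log2 fold change 0.09, 95% interval -0.49 to 0.67). Tcfl5 stood at 852 and 749.6 CPM and at 661 and 750.1 CPM (0.06, -0.44 to 0.56). For both, the TO and testis ranges overlapped.

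Of the flagellum and haploid-gene factors, Rfx2 stood at 126 and 115 CPM in TOs and at 140.0 and 148 CPM in testes (-0.38, -0.82 to 0.07). Rfx4 stood at 77.7 and 49.3 CPM and at 85.3 and 76.1 CPM (-0.48, -0.999 to 0.04), and Sox30 at 68.3 and 65.0 CPM and 68.3 and 70.3 CPM (-0.17, -0.62 to 0.27). Rfx2 did not overlap between the groups, and Rfx4 did. Sox30 differed by less than the spread between libraries.

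Crem stood at 202 and 227 CPM in TOs and at 227 and 224 CPM in testes (-0.18, -0.65 to 0.29). Tbpl1 stood at 709.7 and 854 CPM and at 792 and 1327 CPM (-0.56, -1.27 to 0.15). Both overlapped between the groups. Taf7l was nearly off in all 4 libraries, with 16 and 8 UMIs in TOs (10.8 and 3.49 CPM) and 5.62 and 1.47 CPM in testes (0.89, -0.88 to 2.66). Ovol1 stood at 18.2 and 11.3 CPM and at 14.9 and 15.3 CPM (-0.18, -0.996 to 0.64), and Pou5f2 at 183 and 222 CPM and 141 and 269.8 CPM (-0.14, -0.91 to 0.62). For each of these 3 the TO and testis ranges overlapped.

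**Figure D4:**
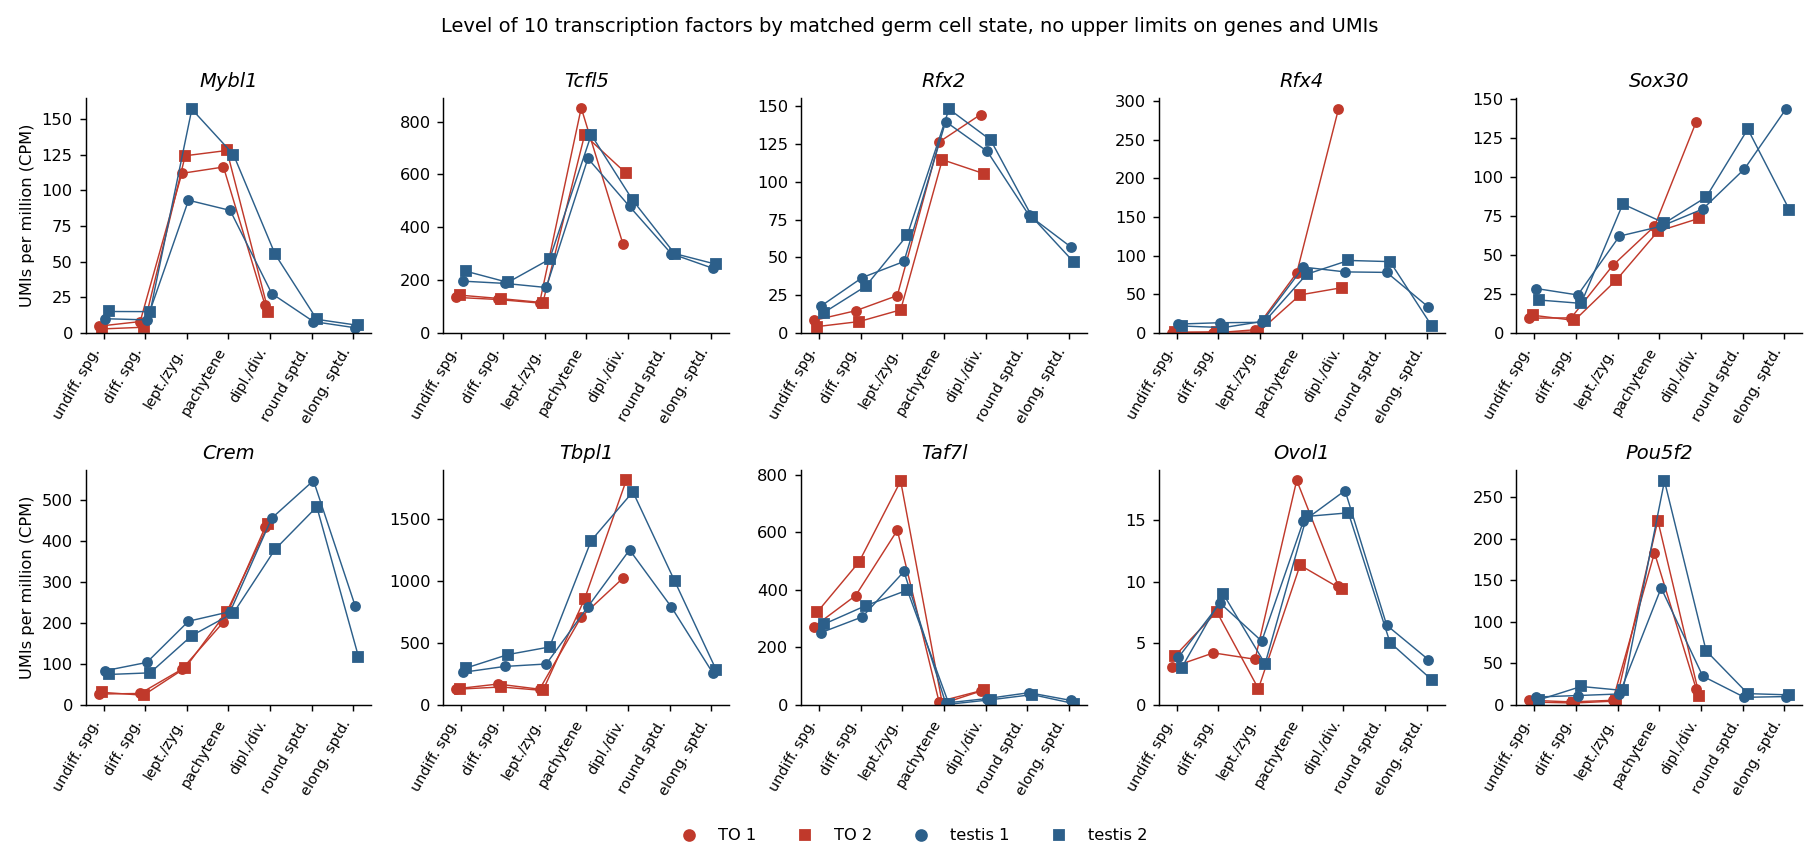
Level of each of the 10 factors (CPM, y axis, from 0) in each matched germ cell state (x axis) where no upper limits on genes or UMIs were set, 1 point per library with at least 10 cells in that state. In pachytene no member was called. Crem overlapped, at 202 and 227 CPM in TOs and 227 and 224 CPM in testes, whereas Rfx2 did not, at 126 and 115 CPM in TOs and 140 and 148 CPM in testes.

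Cells matched to diplotene and dividing spermatocytes numbered 24 and 26 in TOs within the limits and 30 and 49 without them, against 1941 and 2540 in testes without them. The cluster named for this state held only 779 testis cells and 43 TO cells without the limits. With the limits 0 of 10 members were called by edgeR and 0 by DESeq2, with no member at an unadjusted p below 0.05 in either, where 0.372% of all genes were called lower and 0.704% higher. Without the limits edgeR again called 0 of 10, where 0.944% of all genes were called lower and 1.23% higher, and Mybl1 and Pou5f2 in the lower direction and Taf7l in the higher had an unadjusted p below 0.05. Crem, the activator that round spermatids depend on, stood at 434 and 441 CPM in TOs and 456 and 380.0 CPM in testes, and Tbpl1 at 1022 and 1814 CPM and 1251 and 1721 CPM. Both ranges overlapped. Tcfl5 stood at 338 and 604 CPM and 479 and 502 CPM, again on either side.

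Pou5f2 had the largest fitted difference of the 10 in diplotene without the limits, at 19.3 and 10.2 CPM in TOs and 34.3 and 65.0 CPM in testes, on 2 and 13 TO UMIs (-2.10, SE 0.62, edgeR adjusted p = 0.024). With the limits its order was not the same, at 55.9 and 77.5 CPM in TOs and 37.3 and 60.3 CPM in testes. Mybl1, whose level was below that of pachytene in all 4 libraries, stood at 19.3 and 14.8 CPM and 27.6 and 55.1 CPM (-1.40, edgeR adjusted p = 0.17). Taf7l stood at 48.2 and 50.8 CPM in TOs and 21.4 and 17.0 CPM in testes (1.31, edgeR adjusted p = 0.13). Rfx4 stood at 289 CPM in TO replicate 1 and 58.6 CPM in TO replicate 2, with 79.0 and 93.9 CPM in testes between them.

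Round spermatids were too few in TOs for a test, 7 and 11 matched cells with the limits, 0 and 3 without them and 1 and 6 without doublet removal (1.16%, 0.160% and 0.483% of germ cells on average). States were built anew in each setting, so these counts do not follow the same cells. Without the limits a cluster of 411 cells named round spermatids by its markers held 31 TO cells, more than were matched to the state. In the 7 and 11 cells Crem had 7 and 30 UMIs, Sox30 1 and 11, Rfx4 5 and 8 and Tbpl1 3 and 15. In testes Crem peaked in round spermatids, at 548 and 484 CPM without the limits, and was at 242 and 117 CPM in elongating spermatids. Sox30 was at 105 and 130 CPM in round and 143 and 78.7 CPM in elongating spermatids of testes. These late peaks fell in states of which TOs had few or no cells, and without the limits both genes peaked in diplotene among the TO states with at least 10 cells. With the limits TO replicate 2 was highest in its 11 round spermatids, at 648 CPM for Crem and 237 CPM for Sox30.

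4 of the 10 members peaked in the same state in every library. Taf7l peaked in leptotene and zygotene cells, Tcfl5 and Pou5f2 in pachytene and Tbpl1 in diplotene in all 4 libraries, without the limits. Mybl1 peaked in leptotene and zygotene cells in testes and in pachytene in TOs, where the levels of both states were close (112 and 124 CPM against 116 and 128 CPM). Without the limits Ovol1 peaked in pachytene in TOs and in diplotene in testes, and Rfx2 and Rfx4 moved between pachytene and diplotene from library to library. Rfx4 in testis replicate 2 was then nearly as high in round spermatids (92.4 CPM) as in diplotene (93.9 CPM). With the limits Rfx4 peaked in round spermatids in both testis libraries (102 and 135 CPM) and in TO replicate 2 (173 CPM, few cells), and in diplotene in TO replicate 1. Between neighbouring states these are descriptions, with 2 libraries a group.

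Whether a change between successive states was of unequal size was tested by an interaction of state and condition with library as a term. From differentiating spermatogonia to leptotene and zygotene cells 0 of 10 members differed in edgeR, where 1.75% of all genes had a larger change in TOs, and 4 had an unadjusted p below 0.05 (Mybl1, Crem, Taf7l and Pou5f2, each with a larger change in TOs). DESeq2 called 0 and had Tbpl1 alone below 0.05, with the smaller change in TOs. Within libraries Mybl1 changed by 11.8- and 32.7-fold in TOs and by 10.6- and 8.80-fold in testes, and Crem by 3.05- and 2.59-fold against 1.80- and 2.02-fold. For both, the TO libraries had the larger fold. Tbpl1 went from 0.712- to 0.742-fold in TOs and from 1.03- to 1.13-fold in testes, and Taf7l by 1.75- and 1.74-fold against 1.52- and 1.20-fold.

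From leptotene and zygotene to pachytene 0 of 10 members were called by edgeR and 0 by DESeq2 with the limits, where 1.04% of all genes had a larger change in TOs, and Rfx2 and Rfx4 had an unadjusted p below 0.05 in both tools. Rfx2 was called without TO replicate 1 (edgeR adjusted p = 0.000127) and Rfx4 without TO replicate 2 (0.00463). Without the limits 0 of 10 were called, where 5.44% of all genes were called with a larger change in TOs, and 6 members (Tcfl5, Rfx2, Rfx4, Crem, Tbpl1 and Pou5f2) had an unadjusted p below 0.05, each with a larger change in TOs. The median interaction was 0.78 over the members and 0.02 over all genes. The lowest edgeR adjusted p were 0.013 for Rfx4 and 0.051 for Tbpl1, and leaving out a library gave 0 to 2 calls: Rfx4 without TO replicate 1 (0.0067), Tcfl5 and Rfx4 without testis replicate 1 (0.00439 and 0.00737), and Tbpl1 without testis replicate 2 (0.000388).

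Within libraries Tcfl5 went up 7.51- and 6.52-fold over this step in TOs and 3.84- and 2.69-fold in testes. Tbpl1 went up 5.68- and 7.44-fold and 2.41- and 2.85-fold, and Rfx2 5.10- and 7.49-fold and 2.96- and 2.29-fold. The TO folds exceeded the testis folds in both libraries for these 3, for Crem (2.34- and 2.54-fold against 1.11- and 1.33-fold) and for Pou5f2 (34.7- and 50.3-fold against 10.9- and 15.7-fold). These folds start from the leptotene and zygotene levels, and the somatic levels of these genes in testes are given above. Mybl1 moved by 1.04- and 1.03-fold in TOs and 0.923- and 0.797-fold in testes, and Taf7l dropped to 0.0178 and 0.00449 of its level in TOs and to 0.0121 and 0.0037 in testes, so its shutdown was seen in all 4 libraries.

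**Figure D5:**
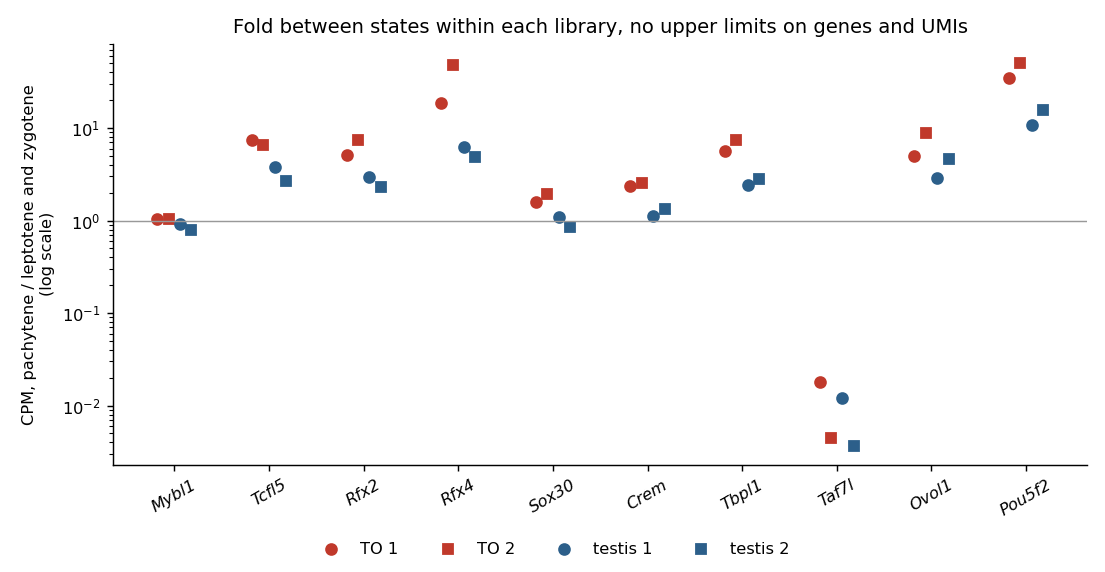
Ratio of the level in pachytene to that in leptotene and zygotene cells (CPM over CPM, y axis on a log scale) for each of the 10 factors (x axis), with 1 point for each library and no upper limits on genes or UMIs. Tcfl5 went up 7.51- and 6.52-fold in TOs and 3.84- and 2.69-fold in testes, while Taf7l dropped below 0.02 in all 4 libraries.

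Genes that these factors are known to act with or upon were counted by the same rule, and their counts are to be read against the share of all genes called lower in TOs: 32.1% over all germ cells, 9.86% and 12.1% in undifferentiated and differentiating spermatogonia, 13.1% in leptotene and zygotene cells and 0.987% in pachytene cells without the limits. With the somatic level subtracted edgeR called no gene in any of the first 4, so every count below in those cells went to 0. That held for genes of every kind, so the lost calls say nothing about a list in particular. Of the listed genes, somatic levels were recorded for Tnp1 and Prm1 only. How much of the differences of the other listed genes in the early states came from free RNA was not tested. Of 14 other regulators of late spermatocytes and spermatids, 6 were lower in TO leptotene and zygotene cells (median log2 fold change -0.84 over the list, -0.01 over all genes) and 8 did not pass. Gtf2a1l, the germ cell partner of TBPL1, stood at 4.19 and 3.60 CPM in TOs and 111 and 74.6 CPM in testes (-4.59), Fhl5 (ACT), the coactivator of CREM, had 0 and 1 UMIs in TOs and 70 and 69 in testes, and Sox5 (-2.95) and Ybx2 (-2.29) were called as well. In pachytene cells without the limits 0 of 13 tested were called, with Fhl5 (0 and 2 UMIs in TOs, 160 and 128 in testes, edgeR adjusted p = 0.0148) and Rfx3 (0.65) at the lowest p, and Gtf2a1l stood at 233 and 253 CPM in TOs and 259 and 258 CPM in testes. Of the 14, the sum over all germ cells had 8 lower (median -2.25), undifferentiated spermatogonia 8 and differentiating spermatogonia 6.

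Of 10 piRNA pathway genes known as MYBL1 targets, 2 were lower in TO leptotene and zygotene cells (Tdrd6 -5.28 and Piwil1 -2.21; median of the list -0.62) and 8 did not pass. In pachytene cells without the limits none of the 10 was called (median 0.07), and Tdrd6 stood at 245 and 251 CPM in TOs and 233 and 296 CPM in testes. Piwil1 (-0.54) and Tdrd1 (-0.47) had the lowest p. Over all germ cells 3 were lower (Tdrd6 -4.93, Piwil1 -2.93 and Mael -1.90) and Mov10l1 was higher (1.32), in undifferentiated spermatogonia 2 were lower and in differentiating spermatogonia 3.

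Of 12 axoneme genes of the kind RFX factors drive, 10 were lower in TO leptotene and zygotene cells (median -3.58), led by Tekt2 (-5.34), Tekt4 (-5.15), Dnali1 (-5.10) and Tekt1 (-4.53). In pachytene cells without the limits 0 of 12 were called (median -0.22, -0.05 over all genes). Dnali1, a light chain of axonemal dynein, stood there at 155 and 138 CPM in TOs and 199 and 182 CPM in testes, and Spag6l, of the central pair, at 495 and 451 CPM and 494 and 505 CPM. The lowest p were those of Tekt2 (-1.23, edgeR adjusted p = 0.030) and Drc1 (-0.74). 8 of the 12 had a larger change in TOs between the 2 states, where 5.44% of all genes did (median interaction 2.40), Tekt4 (4.56) and Dnali1 (3.86) among them. These changes start from the leptotene and zygotene levels, and the part of free RNA in those levels was not tested. All 12 were lower over all germ cells (median -4.52), and 11 of 12 in each of the spermatogonia states.

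6 spermatid genes known to need CREM or TBPL1 were lower in TOs in the 3 early states and over all germ cells, 6 of 6 each time, and 5 of 6 in pachytene cells without the limits. With 0 TO UMIs, Tnp1 was at least 980.0-fold lower and Prm2 at least 1417-fold lower in leptotene and zygotene cells (against a floor of 3 counts over the group), and Prm1 at least 710.2-fold lower in pachytene cells. Spermatogonia and leptotene cells do not make these RNAs, and testis somatic cells held them too (Tnp1 286 to 1557 CPM, 0 to 0.447 CPM in TO somatic cells). Id2, which OVOL1 represses, was not called in leptotene and zygotene cells (31.7 and 9.16 CPM in TOs, 1.72 and 1.79 CPM in testes, 3.41, edgeR adjusted p = 0.010) or in pachytene cells without the limits (25.0 and 10.9 CPM against 1.03 and 0.328 CPM, 4.65, edgeR adjusted p = 0.010). It was called higher in diplotene cells without the limits on 2 and 14 TO UMIs and 11 and 9 testis UMIs (3.70). The level of Id2 in somatic cells was not recorded. The part of free somatic RNA in its TO level was not tested, nor was any link to Ovol1.

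The number of the 10 factors with a UMI in a cell, after thinning each cell to 1500 UMIs was compared over libraries. It was 1.26 ± 0.0694 in TO and 1.80 ± 0.0864 in testis leptotene and zygotene cells, 0.796 ± 0.0178 and 1.16 ± 0.0927 in undifferentiated and 0.930 ± 0.0408 and 1.35 ± 0.0489 in differentiating spermatogonia (SD, n = 2, exact permutation p = 0.33, the smallest possible). In pachytene it was 1.84 ± 0.693 and 2.20 ± 0.243 and in diplotene 2.32 ± 0.0617 and 2.34 ± 0.0811 (exact permutation p = 0.67 for both), with overlapping libraries. Sertoli cells, which do not belong to the germ line, had 0.170 ± 0.0256 in TOs and 1.08 ± 0.160 in testes.

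Over the 14 sums of 7 states and 2 testis libraries, the genes whose level was most like that of each member were found by Pearson's r of log2(CPM + 1), among 8807 genes. They were Hormad1 (0.955) and Chchd1 for Mybl1, 1700029P11Rik (0.976), Sptbn4 and Ankrd54 for Tcfl5, Ndufaf3 (0.971), Psmc3ip and Itgb3bp for Rfx2, and Gramd1c (0.984), 5330417C22Rik and 4933431K23Rik for Rfx4. For Sox30 they were Gm17202 (0.940) and Zfp37, for Crem 2810402E24Rik (0.983), Mtch2 and Lrrc34, for Tbpl1 Dnajb6 (0.973), Rfx8 and Cfap298, and for Taf7l Jade3 (0.984), Bcap31 and Las1l. Ovol1 was most like Htatip2 (0.944), Ino80b and Gpr137, and Pou5f2 most like Zfp574 (0.922), Slc2a3 and Cdkn2c. The sums share libraries, depth and free RNA, so these values describe the pattern only. Hormad1 was itself among the markers that named the leptotene and zygotene state, in which Mybl1 was highest in testes. Its peak there follows in part from how the state was named.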

How the data were processed

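2 TO and 2 testis scRNA-seq libraries were analysed, grouped by their titles. The authors aligned the reads with Cell Ranger 7.1.0 to mm10, per the labels, and the deposited values are unfiltered raw counts of UMIs for each gene and barcode. From these counts, doublets were scored with Scrublet (scanpy 1.11.5, 0.8% per 1000 barcodes), filters were applied as given above, and cells were clustered (2000 variable genes, Harmony, leidenalg 0.10.2, resolution 1). Clusters were named from markers, and names may differ from those of the study. The score by which germ clusters led by somatic genes (10 to 98 cells per library) were left out was set after clusters had been seen. Germ cells were matched by Spearman correlation to 7 testis states of at least 20 cells, without the 10 members and the listed genes. UMIs were summed per library and state (at least 10 cells) and tested with edgeR 4.0.16 under R 4.3.3 (quasi-likelihood F test, TMM, filterByExpr, Benjamini-Hochberg adjustment over all genes tested), with DESeq2 1.42.0 as an alternative. Scripts were tested on simulated data. Intervals of ratios are exact and cover counting error only. Single values were compared by two-sided exact permutation tests. Of each list, up to 4 called genes of largest fold were to be named, or the 2 of lowest adjusted p where none was called. The genes named as most like each member had the 3 highest correlations among genes of at least 50 CPM, and some of them are not reported here. Other listed genes (Gtf2a1l, Tdrd6, Dnali1 and Spag6l in pachytene) were given for comparison after their values had been seen. The members and lists were chosen with earlier results of these data known.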

Additional observations from a re-analysis of the deposited data

How the results depend on the processing

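Over 1371 refitted member values, 1272 stayed on the same side of the threshold, 56 lost it, 43 gained it and 0 called values reversed. Without upper limits on genes and UMIs, 5 members were called over all germ cells in place of 9 (4 with at least 3000 UMIs per cell as well), the share difference was -0.110 percentage points in pachytene (-2.70 with the limits) and -23.4 in diplotene, and the difference in members per cell was -0.655 in leptotene and zygotene cells and -0.153 in diplotene. With the somatic level subtracted, 0 members were called in any comparison (9 over all germ cells, 3, 3 and 4 in the 3 early states before it), and no other gene was called in those 4 comparisons either. Thinned cells gave 1 call in undifferentiated spermatogonia, and a match margin of 0.02, or at least 3000 UMIs without upper limits, 2 in leptotene and zygotene cells. In differentiating spermatogonia 5 were called with all genes of at least 1 UMI, without doublet removal, or with at least 3000 UMIs and no upper limits, and 6 at an adjusted p below 0.05, which also gave 1 call (Taf7l) in the step to leptotene. Leaving out each library gave 5 to 9 calls over all germ cells, 2 to 3 in undifferentiated and 3 to 5 in differentiating spermatogonia, 1 to 5 in leptotene and zygotene cells, 0 to 4 in pachytene and 0 to 1 in the step to pachytene (0 to 2 without upper limits). For members per cell, thinning to 1000 UMIs gave -0.677 over all germ cells, -0.415 in leptotene and zygotene cells and -0.127 in diplotene, and thinning to 3000 gave -0.537, -0.630, -0.952 and -0.167 in undifferentiated, differentiating, leptotene and zygotene, and diplotene cells. Cluster names gave -0.440 in undifferentiated spermatogonia and 0.256 in diplotene, and no doublet removal -0.499 in differentiating spermatogonia and -0.0957 in diplotene. Share differences in undifferentiated spermatogonia were 46.8 percentage points without Harmony and 18.5 by cluster names. Without Harmony no testis cells lay in a cluster named differentiating spermatogonia. That state was therefore not formed, its cells could only be matched to other states, and the 46.8 is not a like comparison. Share differences were 24.6 without doublet removal and 36.1 by cluster names in differentiating spermatogonia. In diplotene they were -23.4 without doublet removal, -22.9 without Harmony and -1.87 by cluster names. The causes were not tested.

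With the replicate number as a replicate block, 5 members were called in differentiating spermatogonia and 6 in leptotene and zygotene cells in place of 3 and 4, and no other count changed. The deviations of replicates with the same number correlated at 0.0477 over all germ cells and at -0.0960 to 0.159 by state. Such values cannot show whether these samples share a batch, and the labels do not say. Not run, for want of cells, were tests in late states with a match margin or at least 3000 UMIs, and tests of TO pachytene cells without doublet removal. The differentiating state was not tested without Harmony, where that state was not formed. The alternatives with at least 3000 UMIs, with clusters led by somatic genes and of leaving out libraries without upper limits were chosen after seeing the data. TO pachytene, diplotene and spermatid cells limit the depth of the late states.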
